A study of Mus musculus with 40 samples.

Results

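The question examined here was whether the immediate transcriptional response of mouse quadriceps to an exhausting treadmill run differed between a session at zeitgeber time (ZT, hours from lights on) 12 and a session at ZT0. It was put as a difference of differences, the change from sedentary to post-run muscle in the ZT12 session minus the same change in the ZT0 session, and was fitted for every gene. The comparison rests on 12 of the 40 libraries of the series, which were chosen from their labels alone. All mice were C57BL/6, and each of the 4 groups held 3 quadriceps libraries. Post-run ZT12 mice were taken at exhaustion (+0h) and are labelled ZT12.5. Sedentary ZT12 mice did not run and were sampled at ZT12. Post-run ZT0 mice were taken at exhaustion and are labelled ZT0.5, and sedentary ZT0 mice were sampled at ZT0. Each library carries its own tag, read here as a separate mouse, so p-values measure the spread between these samples. The running time to exhaustion was not among the data used here, so a difference in the run itself cannot be told apart from time of day.

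Skeletal muscle has its own circadian clock. The activators CLOCK and BMAL1 (gene Arntl) bind E-box sequences and switch on Per, Cry and other repressors, which then shut the activators off. Exercise acts on some of the same genes through calcium, cyclic AMP and stress hormones, and circulating corticosterone in nocturnal mice peaks around the onset of darkness. Contraction also induces immediate early genes, heat shock proteins and chaperones of the endoplasmic reticulum within the time of a single run.

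Library totals ran from 27352875 estimated counts (post-run ZT0 replicate 3) to 73594179 (sedentary ZT0 replicate 2), and 15097 genes passed the filter on low counts. Post-run ZT0 replicate 3 had 10327419 and 17025769 counts in its 2 lanes, while the lanes of every other library compared were near-equal. The 8 muscle markers, among them Acta1, Ckm and Ttn, summed to 70176 to 91138 CPM (counts scaled to a common library size of 1e+06) in the 12 libraries. Fat-cell and slow-fibre transcripts varied from library to library, and their values stand below beside the results they move with. In pieces of whole muscle, fewer cells of a type and less RNA per cell cannot be told apart.

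The difference between the sessions was called for 0 of 15097 genes (0%) by edgeR's quasi-likelihood test at an adjusted p of 0.05, and the smallest adjusted p was 0.258. At an unadjusted p under 0.05 there were 1912 genes (12.7%), 693 with a positive difference (4.59%, a response higher in the ZT12 session) and 1219 with a negative one (8.07%). DESeq2, run as an alternative, called 18 of 13048 genes (0.138%), 5 positive and 13 negative. Without post-run ZT0 replicate 2, edgeR called 28 positive (0.183%) and 294 negative (1.92%) differences. Within each session the response itself was called for many genes. In the ZT12 session 695 genes were called (4.6%), of which 482 rose (3.19%) and 213 fell (1.41%). Of the 1029 genes called in the ZT0 session (6.82%), 647 rose (4.29%) and 382 fell (2.53%). The median standard error (SE) of the difference was 0.18 on the log2 scale over all tested genes, and for 71.01% of them the 95% interval of the difference lay within 1 log2 unit (2-fold) on either side of 0.

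Per1, Ciart, Arrdc2, Map3k6 and Slc10a6, all more abundant in sedentary muscle at ZT12 than at ZT0, were among the named genes with a negative difference. Per1, a clock repressor that is also induced by glucocorticoids and cyclic AMP, had 292, 219 and 176 CPM in post-run ZT12 muscle, against 101, 129 and 125 CPM in sedentary ZT12 muscle. It had 158, 117 and 112 CPM in post-run ZT0 muscle, against 11.8, 11.6 and 12.48 CPM in sedentary ZT0 muscle. Post-run and sedentary libraries did not overlap in either session, the post-run ZT0 libraries overlapped those of unexercised ZT12 muscle, and the sedentary ZT0 libraries stood far below all the others. Its log2 response was 0.95 in the ZT12 session and 3.43 in the ZT0 session, a difference of -2.48 (SE 0.52, 95% interval -3.59 to -1.38, unadjusted p = 0.00019, edgeR adjusted p = 0.258). Per1 rose in the ZT0 session (edgeR adjusted p = 1e-04) and did not pass in the ZT12 session (adjusted p = 0.18). The difference was called by DESeq2 (adjusted p = 0.0093) and in edgeR when only the 12 libraries compared were fitted. The part of the difference that lay in unexercised muscle, sedentary ZT12 minus sedentary ZT0, was 3.31, and the part after the run, post-run ZT12 minus post-run ZT0, was 0.83. These parts share all their libraries with the difference and add no separate evidence.

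Ciart, a repressor of CLOCK and BMAL1, had the same arrangement of groups. It stood at 49.5, 33.6 and 23.7 CPM in post-run ZT12 muscle and at 9.10, 12.6 and 12.8 CPM in sedentary ZT12 muscle. The levels were 18.5, 8.13 and 10.1 CPM in post-run ZT0 muscle and 0.517, 0.819 and 1.19 CPM in sedentary ZT0 muscle. In both sessions every post-run library lay above every sedentary one, and Ciart rose in both, by 1.63 in the ZT12 session and by 3.88 in the ZT0 session (edgeR adjusted p = 0.023 and 0.00014). The difference was -2.25 (SE 0.61, edgeR adjusted p = 0.258). Because CLOCK and BMAL1 act through E-boxes, the promoter windows of both genes are shown, from 250 bases before to 50 bases after the RefSeq start (GRCm38.p6), on the gene's own strand and with the E-box CACGTG in capitals. The Per1 window is chr11:69098699-69098998 on the plus strand and the Ciart window is chr3:95882179-95882478 on the minus strand.
Per1: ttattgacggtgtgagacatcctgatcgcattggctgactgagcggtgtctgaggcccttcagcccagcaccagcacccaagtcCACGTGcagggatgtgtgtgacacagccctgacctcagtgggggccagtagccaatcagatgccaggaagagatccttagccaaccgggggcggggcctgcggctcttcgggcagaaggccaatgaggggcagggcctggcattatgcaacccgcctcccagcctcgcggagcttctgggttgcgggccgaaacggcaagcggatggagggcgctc
Ciart: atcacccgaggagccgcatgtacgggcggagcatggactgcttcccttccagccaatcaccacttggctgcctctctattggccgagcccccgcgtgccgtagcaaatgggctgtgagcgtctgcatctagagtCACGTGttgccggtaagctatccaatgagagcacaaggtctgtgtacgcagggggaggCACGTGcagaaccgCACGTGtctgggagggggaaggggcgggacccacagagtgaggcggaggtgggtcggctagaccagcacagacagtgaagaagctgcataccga
The Ciart window holds 3 E-boxes, at -116, -58 and -44 from the start, and this Per1 window holds 1, at -166. The table has another Per1 window, chr11:69099902-69100201 on the plus strand, which holds 0. Both Per1 windows belong to starts inside the gene, whose first base is chr11:69095108, and the sequence before that base was not searched. The letters CACGTG, which read the same on both strands, occur in 7.15% of the 32851 windows of this length in the table and in those of 6 of the 84 named genes that have a window. Here and below the share is of windows, while a named gene counts if any of its windows holds a match, so the 2 are not like for like. A match is a description of the sequence and not a measured binding site.

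Arrdc2, an arrestin-domain gene that glucocorticoids induce in muscle, had 283, 161 and 169 CPM in post-run ZT12 muscle, against 122, 281 and 195 CPM in sedentary ZT12 muscle. In the ZT0 session it had 78.8, 56.0 and 67.3 CPM after the run, against 9.80, 8.97 and 10.9 CPM in sedentary muscle. The ZT12 groups overlapped and the ZT0 groups did not. Arrdc2 rose by 2.77 in the ZT0 session (edgeR adjusted p = 0.001) and its response in the ZT12 session was 0.03 (adjusted p = 0.98), a difference of -2.74 (SE 0.58, 95% interval -3.97 to -1.502, edgeR adjusted p = 0.258, DESeq2 adjusted p = 0.0092). Unexercised muscle differed by 4.34 (ZT12 minus ZT0) and post-run muscle by 1.60 (edgeR adjusted p = 0.018).

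Map3k6, a stress-activated kinase, and Slc10a6, a transporter of sulphated steroids, followed the same order. Map3k6 had 33.2, 24.1 and 20.9 CPM in post-run ZT12 muscle and 13.97, 17.97 and 17.5 CPM in sedentary ZT12 muscle, and then 15.4, 11.2 and 13.3 CPM in post-run ZT0 muscle and 2.70, 3.69 and 3.76 CPM in sedentary ZT0 muscle. Slc10a6 had 5.91, 3.82 and 4.22 CPM in post-run ZT12 muscle and 2.71, 4.34 and 3.78 CPM in sedentary ZT12 muscle, and then 2.42, 1.56 and 3.31 CPM in post-run ZT0 muscle and 0.555, 0.512 and 0.370 CPM in sedentary ZT0 muscle. For both genes the sedentary ZT0 libraries were the lowest of the 12. Both rose in the ZT0 session, Map3k6 by 1.97 and Slc10a6 by 2.30, and neither passed in the ZT12 session (0.66 and 0.36). The differences were -1.31 for Map3k6 and -1.94 for Slc10a6 (edgeR adjusted p = 0.258 for each, DESeq2 adjusted p = 0.042 and 0.043). Their windows are shown because each holds a match to the glucocorticoid response element, the near-palindromic sequence bound by the receptor, searched as GNACA and TGTNC with any 3 bases between them (capitals). The Map3k6 window is chr4:133240568-133240867 on the plus strand and the Slc10a6 window is chr5:103629354-103629653 on the minus strand.
Map3k6: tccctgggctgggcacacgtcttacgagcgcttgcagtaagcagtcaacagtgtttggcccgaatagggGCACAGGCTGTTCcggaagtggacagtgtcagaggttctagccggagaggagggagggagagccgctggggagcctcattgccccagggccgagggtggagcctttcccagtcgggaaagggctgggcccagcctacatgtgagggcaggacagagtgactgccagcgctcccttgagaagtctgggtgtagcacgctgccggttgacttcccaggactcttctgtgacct
Slc10a6: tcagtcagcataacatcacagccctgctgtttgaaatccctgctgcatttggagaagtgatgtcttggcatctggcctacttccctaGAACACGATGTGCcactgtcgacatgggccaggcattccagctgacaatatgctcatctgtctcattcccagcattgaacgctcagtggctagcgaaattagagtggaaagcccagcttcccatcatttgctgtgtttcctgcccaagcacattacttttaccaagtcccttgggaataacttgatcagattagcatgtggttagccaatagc
The match begins at -181 in Map3k6 and at -163 in Slc10a6. The Map3k6 window belongs to a start inside the gene, whose first base is chr4:133237979, and the sequence before that base was not searched. On either strand this element occurs in 0.475% of the 32851 windows and in those of 4 of the 84 named genes with a window, the others being Mt1 and Jund. The windows of Per1, Ciart and Arrdc2 were searched in the same way and held none. Nor did those of Ddit4, Tsc22d3 and Mt2, which are described below. Some of the named genes were taken from the glucocorticoid responsive list below or preset, Mt1 among them, so the named set is not a neutral sample.

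**Figure D1:**
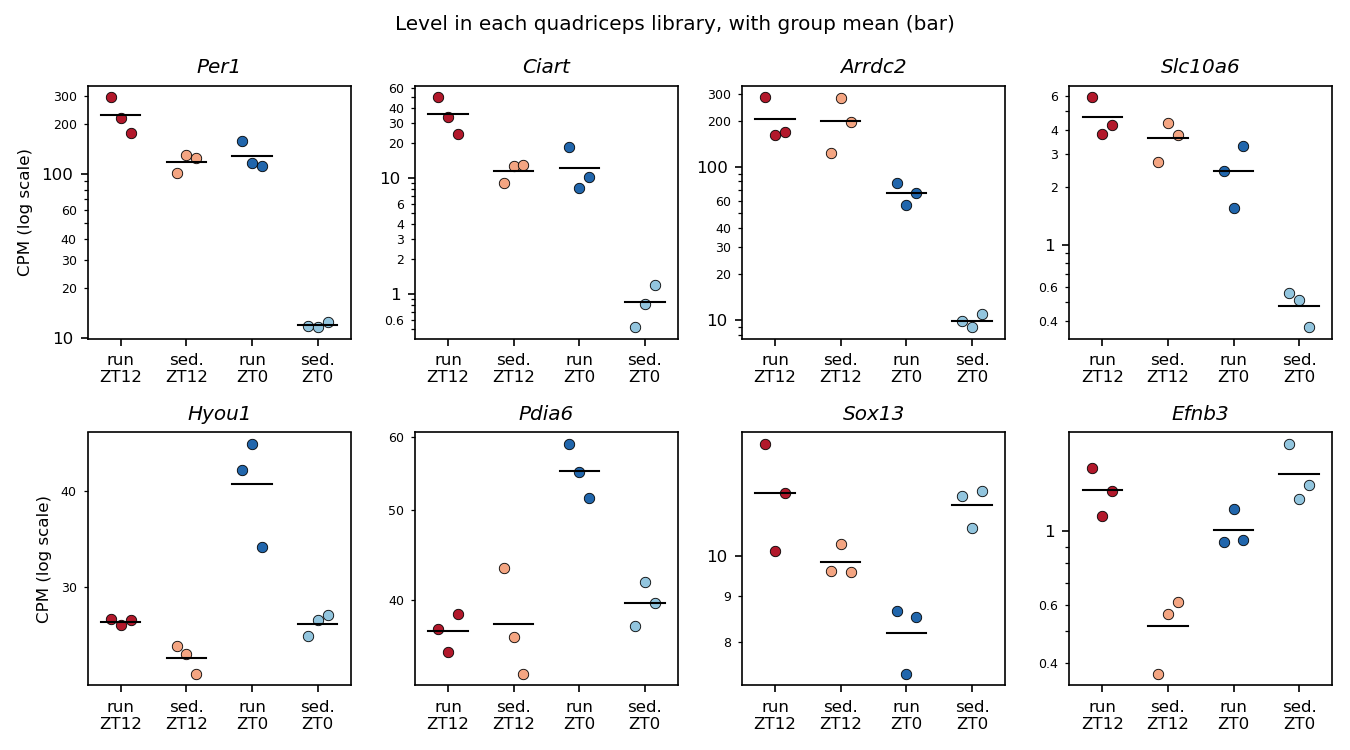
Level of 8 genes in each of the 12 quadriceps libraries, in CPM on a log axis, with the group mean as a bar; from left to right the groups are post-run ZT12, sedentary ZT12, post-run ZT0 and sedentary ZT0. In the upper panels the sedentary ZT0 libraries stand lowest, Per1 at 11.6 to 12.48 CPM, and in Hyou1 and Pdia6 the post-run ZT0 libraries stand highest.

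Across the 24 glucocorticoid responsive genes, which include Per1 and Arrdc2, 8 rose in the ZT12 session, where 3.19% of all tested genes did, and 15 in the ZT0 session, where 4.29% did, and none fell. The median difference of the list was -0.27, against 0.01 over all genes tested, and 5 members had a negative and 0 a positive difference at an unadjusted p under 0.05, where 8.07% and 4.59% of all tested genes did. With the adipocyte score as a covariate the median was -0.18, and 2 members were negative and 1 positive at such a p, where 1.61% and 1.74% of all tested genes were. Ddit4, an inhibitor of mTORC1 signalling, had 300.5, 251 and 178 CPM in post-run ZT12 muscle, against 23.6, 74.1 and 68.1 CPM in sedentary ZT12 muscle. In the ZT0 session it had 133, 76.5 and 99.2 CPM after the run, against 4.04, 4.10 and 4.07 CPM in sedentary muscle. Post-run libraries were above sedentary ones in both sessions, and the difference was -2.52 (SE 1.11, edgeR adjusted p = 0.361). Tsc22d3, an anti-inflammatory target of the glucocorticoid receptor, rose in both sessions, by 0.66 and by 1.24, with a difference of -0.57 (adjusted p = 0.362). The metallothioneins, which bind metal ions, rose in both sessions, Mt1 by 2.65 in the ZT12 session and by 3.06 in the ZT0 session and Mt2 by 3.39 and by 3.70. The 95% interval of the difference ran from -1.13 to 0.31 for Mt1 and from -1.28 to 0.65 for Mt2.

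Of the 19 core clock genes, 2 rose and 1 fell in the ZT12 session, where 3.19% and 1.41% of all tested genes did, and 3 rose in the ZT0 session, where 4.29% did. The median difference was -0.03, from -0.14 to 0.01 over the alternatives. At an unadjusted p under 0.05 there were 3 negative differences (Per1, Ciart and Nr1d1) and 0 positive ones, where 8.07% and 4.59% of all tested genes had such a p. The counts were the same with the adipocyte score as a covariate, where 1.61% and 1.74% did. Arntl, which encodes BMAL1, had 4.87, 5.91 and 4.40 CPM in post-run ZT12 muscle, against 4.57, 3.07 and 4.09 CPM in sedentary ZT12 muscle, and 49.1, 49.8 and 49.8 CPM in post-run ZT0 muscle, against 47.8, 51.3 and 45.8 CPM in sedentary ZT0 muscle. Its sedentary levels differed between ZT12 and ZT0 by -3.63 (adjusted p = 3.3e-10), neither response passed, and the difference of responses was 0.34 (95% interval -0.18 to 0.85). For Cry1, a repressor, the difference was 0.14 (interval -0.10 to 0.39), and for Per2, the partner of Per1, it was -0.67 (interval -1.96 to 0.61). Dbp, an output transcription factor of the clock, stood at 71.6, 93.1 and 100.1 CPM in post-run ZT12 muscle, against 119, 122 and 120 CPM in sedentary ZT12 muscle, and at 8.71, 9.05 and 6.82 CPM in post-run ZT0 muscle, against 8.02, 8.04 and 9.68 CPM in sedentary ZT0 muscle. Its difference was -0.39 (SE 0.21, edgeR adjusted p = 0.451). Nr1d1, the repressor REV-ERB alpha, fell by 0.79 in the ZT12 session (adjusted p = 0.029), did not pass in the ZT0 session (-0.19) and had a difference of -0.60 (adjusted p = 0.39).

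Genes of protein folding in the endoplasmic reticulum were raised after the run in the ZT0 session, while few passed in the ZT12 session. Of the 26 endoplasmic reticulum and integrated stress genes, 16 rose in the ZT0 session, where 4.29% of all tested genes did. In the ZT12 session 2 rose (Atf4 and Ppp1r15a, which rose in both), where 3.19% did. The difference was negative at an unadjusted p under 0.05 for 14 of the 26 and positive for 0, where 8.07% and 4.59% of all tested genes were, and none passed adjustment. The median of the list was -0.31. Its range over the alternatives was -0.40 to -0.24. With the adipocyte score as a covariate 11 of the 26 had a negative difference at an unadjusted p under 0.05, where 1.61% of all tested genes did.

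Hyou1, a chaperone of the endoplasmic reticulum lumen, had 27.2, 26.7 and 27.2 CPM in post-run ZT12 muscle, against 25.2, 24.5 and 23.1 CPM in sedentary ZT12 muscle. In the ZT0 session the values were 42.6, 46.1 and 33.9 CPM after the run, against 25.8, 27.1 and 27.6 CPM in sedentary muscle. The 3 post-run ZT0 libraries were the highest of the 12, and the other groups lay close together. The response was 0.16 in the ZT12 session and 0.61 in the ZT0 session, a difference of -0.45 (SE 0.11, 95% interval -0.68 to -0.22, edgeR adjusted p = 0.258). The sedentary groups were near each other (-0.15, ZT12 minus ZT0, adjusted p = 0.21), and the post-run groups were apart (-0.60, adjusted p = 5e-05). Without post-run ZT0 replicate 3, Hyou1 was the 1 gene called (-0.57).

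The protein disulphide isomerases, which form and rearrange disulphide bonds in folding proteins, had the same order. Pdia6 stood at 37.3, 35.2 and 38.7 CPM in post-run ZT12 muscle, against 43.3, 36.5 and 33.4 CPM in sedentary ZT12 muscle. It stood at 58.9, 55.0 and 51.5 CPM in post-run ZT0 muscle, against 37.5, 41.9 and 39.8 CPM in sedentary ZT0 muscle. The ZT12 groups overlapped and the post-run ZT0 libraries lay above all others. The difference was -0.50 (SE 0.12) for Pdia6, -0.58 (SE 0.15) for Pdia3 and -0.76 (SE 0.21) for Pdia4, each at an edgeR adjusted p of 0.258. Of these genes the Pdia6 window, chr12:17266339-17266638 on the plus strand, is shown because it holds the endoplasmic reticulum stress element (capitals), the joint site of NF-Y and ATF6, searched as CCAAT and CCACG with any 9 bases between them.
Pdia6: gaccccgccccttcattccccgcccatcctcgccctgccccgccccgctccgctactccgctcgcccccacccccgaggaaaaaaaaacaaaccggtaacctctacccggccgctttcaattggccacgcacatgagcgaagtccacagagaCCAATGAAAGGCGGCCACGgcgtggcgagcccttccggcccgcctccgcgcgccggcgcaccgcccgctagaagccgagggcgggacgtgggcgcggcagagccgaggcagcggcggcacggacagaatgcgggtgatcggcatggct
The element begins at -98. Searched on both strands, it occurs in 0.119% of the 32851 windows and in that of 1 of the 84 named genes, and it was added to the motifs after these genes had been seen.

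The named genes with a positive difference had varied roles. Msx1, a homeobox repressor of differentiation, had 1.42, 1.98 and 2.27 CPM in post-run ZT12 muscle, against 1.78, 1.89 and 1.60 CPM in sedentary ZT12 muscle. The ZT0 session gave 1.82, 2.06 and 1.497 CPM after the run, against 2.81, 4.06 and 3.598 CPM in sedentary muscle. The sedentary ZT0 libraries stood above the other 9, which overlapped. Msx1 fell by 0.95 in the ZT0 session (edgeR adjusted p = 0.0043), its response in the ZT12 session was 0.11, and the difference was 1.06 (SE 0.28, 95% interval 0.48 to 1.63, edgeR adjusted p = 0.258). Sox13, a transcription factor, had 13.4, 10.1 and 11.8 CPM in post-run ZT12 muscle, against 9.61, 10.3 and 9.58 CPM in sedentary ZT12 muscle, and 8.68, 7.36 and 8.53 CPM in post-run ZT0 muscle, against 11.7, 10.7 and 11.8 CPM in sedentary ZT0 muscle. The ZT12 groups overlapped, and the post-run ZT0 libraries were the lowest of the 12. Sox13 fell by 0.48 in the ZT0 session (edgeR adjusted p = 0.0094) and read 0.26 in the ZT12 session, a difference of 0.74 (SE 0.15, 95% interval 0.42 to 1.06, DESeq2 adjusted p = 0.015).

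In other genes with a positive difference, a rise passed in the ZT12 session alone. Sox17, an endothelial transcription factor, had 10.99, 10.5 and 9.66 CPM in post-run ZT12 muscle, against 4.63, 5.07 and 6.10 CPM in sedentary ZT12 muscle. In the ZT0 session it had 6.38, 6.01 and 6.96 CPM after the run, against 4.75, 5.14 and 6.44 CPM in sedentary muscle. The post-run ZT12 libraries were above the other 9, and the ZT0 groups overlapped. Sox17 rose by 0.98 in the ZT12 session (edgeR adjusted p = 0.00018) and read 0.24 in the ZT0 session, a difference of 0.73 (SE 0.19, adjusted p = 0.258). The sphingosine kinase gene Sphk2 (0.49), the solute carrier gene Slc45a3 (0.65), Smad7, an inhibitor of TGF-beta signalling (0.77), and Id1, an inhibitor of basic helix-loop-helix factors (1.32), also rose in the ZT12 session and did not pass in the ZT0 session. Their differences were 0.43, 0.79, 0.80 and 0.82 (edgeR adjusted p = 0.258 for each). Unexercised muscle (ZT12 minus ZT0) differed by -0.04 in Sox17, -0.80 in Sphk2, -0.38 in Slc45a3 and -0.68 in Smad7. Post-run muscle differed by 0.69, -0.37, 0.41 and 0.12 in the same genes. In Efnb3 the groups lay in opposite order in the sessions. Efnb3, an ephrin ligand, had 1.55, 1.11 and 1.33 CPM in post-run ZT12 muscle, against 0.372, 0.564 and 0.614 CPM in sedentary ZT12 muscle, and 0.926, 1.17 and 0.940 CPM in post-run ZT0 muscle, against 1.84, 1.25 and 1.38 CPM in sedentary ZT0 muscle. Post-run libraries were all above the sedentary ones in the ZT12 session and all below them in the ZT0 session, a separation that 75 of the tested genes had in 1 order or the other (0.497%). Efnb3 rose by 1.35 in the ZT12 session (edgeR adjusted p = 0.0033), read -0.55 in the ZT0 session without passing, and had a difference of 1.91 (SE 0.36, 95% interval 1.15 to 2.66, edgeR adjusted p = 0.258, DESeq2 adjusted p = 0.0051). Fam43a rose in both sessions, by 1.63 and by 0.74, with a difference of 0.90 (DESeq2 adjusted p = 0.042). Unexercised muscle (ZT12 minus ZT0) differed by -1.51 in Efnb3 and -0.87 in Fam43a, and post-run muscle by 0.39 and 0.03. Of the 9 endothelial markers, 1 rose in the ZT12 session, and 1 rose and 2 fell in the ZT0 session. The shares of all tested genes were 3.19%, 4.29% and 2.53%. The median difference of these markers was 0.14.

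**Figure D2:**
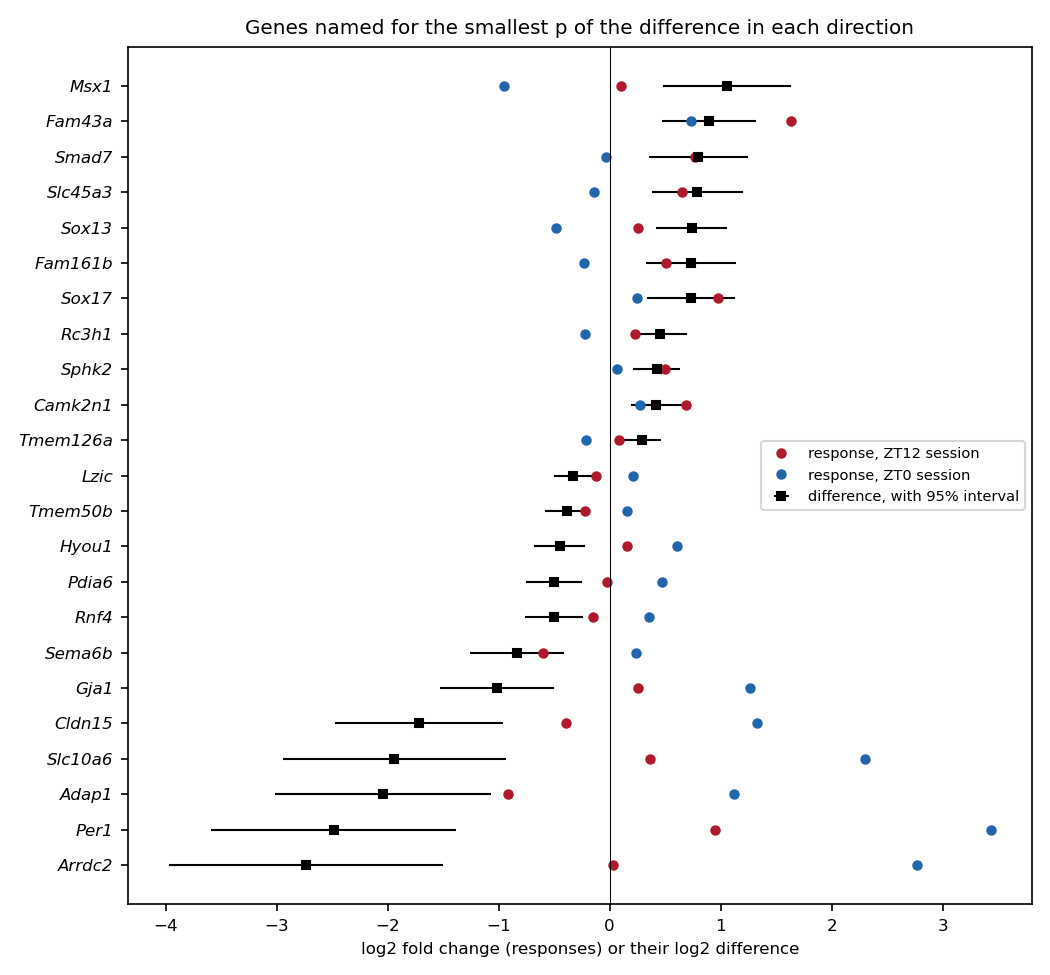
Log2 response to the run in the ZT12 session (red points) and the ZT0 session (blue points), and their log2 difference with its 95% interval (black squares), for the genes with the smallest unadjusted p of the difference in each direction, among those with an average log2 CPM of at least 1. The differences shown run from -2.74 in Arrdc2 to 1.06 in Msx1, and none passed adjustment over all genes.

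Of 332 genes called in the ZT12 session only, 295 had the same sign in the ZT0 session (88.9%), and of 666 called in the ZT0 session only, 546 had the same sign in the ZT12 session (81.98%). Of all tested genes 57.9% had the same sign in both. Among those named from the first group were Tap1 and Psmb9, which belong to the antigen processing machinery. Tap1, a peptide transporter, had 2.36, 2.17 and 2.71 CPM in post-run ZT12 muscle, against 8.25, 4.34 and 4.60 CPM in sedentary ZT12 muscle, and 4.69, 2.54 and 5.05 CPM in post-run ZT0 muscle, against 3.02, 4.72 and 3.87 CPM in sedentary ZT0 muscle. The groups were apart in the ZT12 session and overlapped in the ZT0 session. Tap1 fell by 1.24 in the ZT12 session (edgeR adjusted p = 0.0094), read 0.07 in the ZT0 session and had a difference of -1.31 (SE 0.38, adjusted p = 0.258). Psmb9, an immunoproteasome subunit, fell by 1.14 in the ZT12 session, with a difference of -1.29 (SE 0.38). With a score of adipocyte markers as a covariate the differences were -0.47 for Tap1 and -0.41 for Psmb9, and Tap1 was highest in sedentary ZT12 replicate 1, the library with the highest sum of these markers (2911 CPM). The exonuclease gene Exo5 and Camsap3, which binds microtubule ends, were also called as lower after the run in the ZT12 session and not in the ZT0 session. Their differences between the sessions were -1.20 and -1.30.

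The part of the response that was large in both sessions was compared as well. Of the 363 genes called in both sessions in the same direction, 132 changed at least 2-fold in both, 114 raised and 18 lowered, and 0 genes were called in opposite directions. For 35 of these 132 the 95% interval of the difference lay within 2-fold either way (26.5%, against 71.01% of all tested genes), and 7 had an unadjusted p under 0.05 for the difference (5.3%, against 12.7%), namely Ciart, Klf4, Depp1, Uts2r, Myct1, Arc and Lrrc32. The 132 were chosen for large responses in the same direction in both sessions, from the same libraries. That choice favours similar responses, so these shares do not test whether the shared response depends less on the session. The tightest estimates were Thbd, Ccnl1, Irf2bp2, Wdr92, Epha2, Neurl1b, Zfp948, Efna1, Rhob and Spry4. Thbd, the endothelial anticoagulant thrombomodulin, had 43.0, 38.6 and 42.3 CPM in post-run ZT12 muscle, against 16.6, 14.7 and 15.48 CPM in sedentary ZT12 muscle, and 46.0, 52.9 and 39.7 CPM in post-run ZT0 muscle, against 19.1, 21.9 and 21.5 CPM in sedentary ZT0 muscle. Every post-run library lay above every sedentary one in both sessions, and the difference was 0.25 (SE 0.19, interval -0.13 to 0.64). Rhob, a small GTPase, rose by 1.21 and by 1.20 (difference 0.01, interval -0.54 to 0.57). Efna1, a ligand of Eph receptors, fell by 1.23 and by 1.22, and its receptor gene Epha2 rose by 1.15 and by 1.36.

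Immediate early genes rose in both sessions, 23 of 28 in the ZT12 session and 21 of 28 in the ZT0 session. Of all tested genes 3.19% and 4.29% did. The list had a median response of 2.72 in the ZT12 session and 2.68 in the ZT0 session, and a median difference of 0.11, which was -0.05 without post-run ZT12 replicate 3 and -0.02 with the adipocyte covariate. Junb, a subunit of the AP-1 factor, had 204, 218 and 199.9 CPM in post-run ZT12 muscle, against 9.57, 7.91 and 8.37 CPM in sedentary ZT12 muscle, and 159, 151 and 129 CPM in post-run ZT0 muscle, against 5.15, 4.71 and 5.45 CPM in sedentary ZT0 muscle. Its difference was -0.26, but with a 95% interval of -1.58 to 1.06. For Fos the interval ran from -2.93 to 2.11, for Fosb from -3.66 to 1.84 and for Nr4a3, an orphan nuclear receptor, from -1.31 to 2.92, so changes of several-fold in either direction were not resolved at this replication. Klf4, a Krüppel-like factor, had 146, 145 and 121 CPM in post-run ZT12 muscle, against 16.8, 17.9 and 22.2 CPM in sedentary ZT12 muscle, and 114, 117 and 109 CPM in post-run ZT0 muscle, against 33.8, 32.3 and 44.6 CPM in sedentary ZT0 muscle. It rose by 2.86 and by 1.61, a difference of 1.25 (SE 0.39, edgeR adjusted p = 0.258). Arc differed the other way (-1.37, SE 0.58, adjusted p = 0.333).

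Of the 26 heat shock genes, 13 rose in the ZT12 session, where 3.19% of all tested genes did, and 10 in the ZT0 session, where 4.29% did. Their median difference was 0.16, which was 0.0044 with the adipocyte covariate. The inducible HSP70 gene Hspa1a had 203, 171 and 392 CPM in post-run ZT12 muscle, against 5.37, 4.55 and 7.74 CPM in sedentary ZT12 muscle, and 306, 393 and 152 CPM in post-run ZT0 muscle, against 25.01, 34.99 and 108 CPM in sedentary ZT0 muscle. The post-run groups overlapped each other, and the sedentary groups did not. It rose by 5.44 in the ZT12 session, read 2.34 in the ZT0 session (adjusted p = 0.14), and had a difference of 3.10 (SE 1.28, edgeR adjusted p = 0.329). The difference of Hspa1b was 3.27 (SE 1.402). Because these copies are near-identical, the split of reads between them is uncertain.

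**Figure D3:**
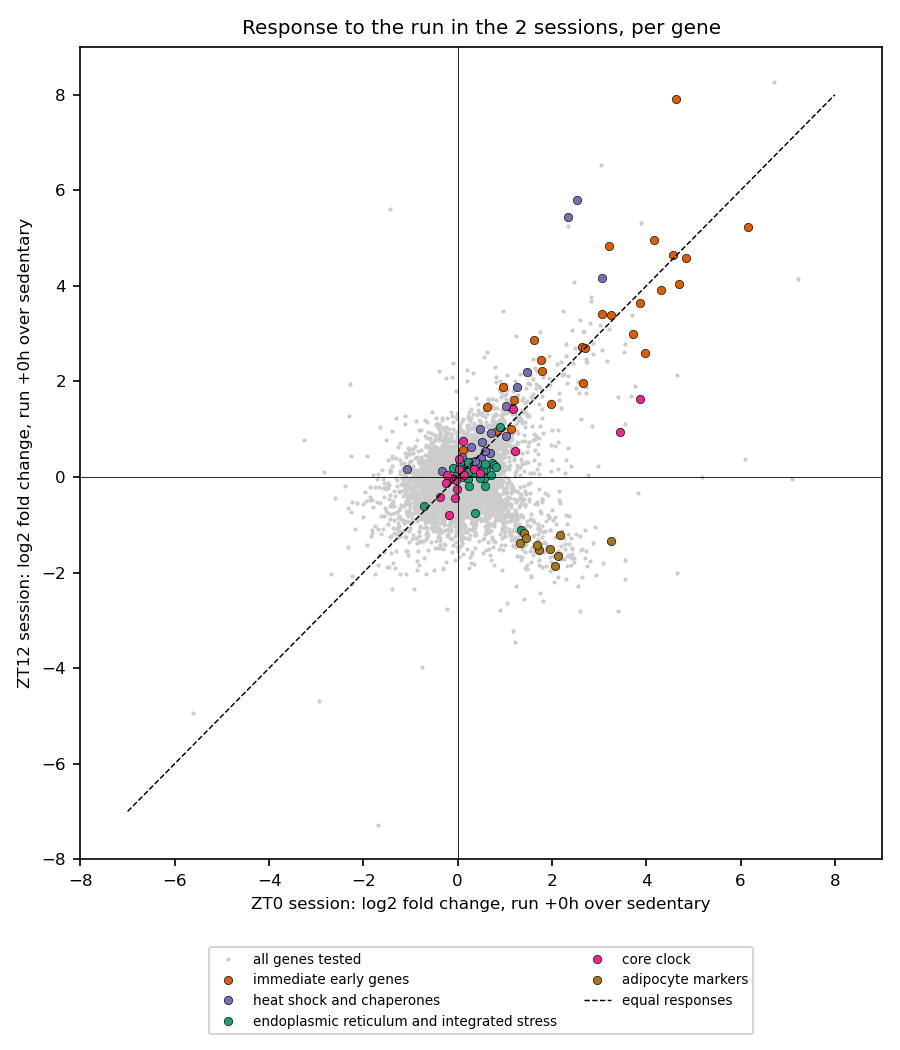
Log2 fold change of every tested gene after the run in the ZT0 session (horizontal) and in the ZT12 session (vertical), with 5 gene or marker lists in colour and the line of equal responses dashed. Immediate early genes lie along the line with medians of 2.68 and 2.72, Per1 and Ciart are the clock genes far below it, and adipocyte markers lie at positive values for ZT0 and negative values for ZT12.

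Fat-cell transcripts had the widest median difference of any list, and their level varied widely between replicates. The 10 adipocyte markers summed to 977, 271 and 505 CPM in post-run ZT12 muscle, against 2911, 1058 and 503 CPM in sedentary ZT12 muscle. In the ZT0 session they summed to 1840, 330.3 and 2116 CPM after the run, against 281, 714 and 238 CPM in sedentary muscle. Sedentary ZT12 replicate 1 and post-run ZT0 replicates 1 and 3 were high, post-run ZT0 replicate 2 was low, and the groups overlapped in both sessions. The median difference was -3.31, with none called in either session. For 9 of 10 markers the difference was negative at an unadjusted p under 0.05, where 8.07% of all tested genes were. With single libraries left out, it ran from -4.44 to -2.51 for Adipoq and from -4.31 to -2.30 for Cfd. The range was -3.35 to -2.02 for Pparg and -3.05 to -1.84 for Fabp4. Adipoq, which encodes the fat-cell hormone adiponectin, had a difference of -3.47 (SE 1.11, edgeR adjusted p = 0.258), with 68.2, 13.2 and 30.1 CPM in post-run ZT12 muscle, against 207, 78.6 and 29.7 CPM in sedentary ZT12 muscle, and 117, 21.3 and 146 CPM in post-run ZT0 muscle, against 13.6, 47.3 and 11.1 CPM in sedentary ZT0 muscle.

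Lipogenesis and sterol synthesis genes moved with these markers. They summed to 4237, 1491 and 1902 CPM in post-run ZT12 muscle, against 9063, 5765 and 1704 CPM in sedentary ZT12 muscle, and to 5726, 1425 and 15723 CPM in post-run ZT0 muscle, against 1657, 3191 and 1503 CPM in sedentary ZT0 muscle. The libraries with high adipocyte markers were the high ones here too. The median difference of the 22 genes was -0.99, with 15 negative at an unadjusted p under 0.05, where 8.07% of all tested genes were. With the adipocyte score as a covariate the median was 0.01 and 0 of the 22 had such a p. The lipogenic genes Acly and Thrsp had differences of -4.27 and -3.45 without the covariate and of 0.21 and 0.11 with it. The sterol synthesis genes Cyp51 and Hmgcs1 rose in the ZT0 session, by 0.92 and by 0.50, and did not pass in the ZT12 session. Their differences were -0.85 and -0.46 without the covariate and -0.34 and -0.16 with it, and Cyp51 was highest in post-run ZT0 replicate 3, at 15.2 CPM, against 8.66 and 6.89 CPM in its replicates.

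Several of the 13 genes with a negative difference in DESeq2 followed the same libraries. Kit, a receptor tyrosine kinase, had 1.33, 1.15 and 1.33 CPM in post-run ZT12 muscle, against 2.63, 1.497 and 2.23 CPM in sedentary ZT12 muscle, and 2.55, 1.29 and 5.12 CPM in post-run ZT0 muscle, against 1.24, 1.20 and 1.25 CPM in sedentary ZT0 muscle. Post-run ZT0 replicate 2 was at the sedentary level and replicate 3 was the highest. The difference was -1.98 in Kit, -1.22 with the adipocyte covariate. The gap junction gene Gja1 had -1.01, and -0.59 with the covariate, and the claudin gene Cldn15 had -1.71, and -0.90 with it. In contrast, the covariate left Per1 at -2.42, Arrdc2 at -2.55, Sox13 at 0.84 and Hyou1 at -0.54. With it, 506 genes had an unadjusted p under 0.05 for the difference, 263 positive (1.74%) and 243 negative (1.61%), against 1912 without it, and 0 were called. The covariate differs between these same groups, and the part of fat tissue in each result was not tested beyond these values.

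Transcripts of the respiratory chain lay on the positive side. All 26 nuclear oxidative phosphorylation genes had a positive difference, 22 of them at an unadjusted p under 0.05, where 4.59% of all tested genes did. The median was only 0.30, however, and none was called in either session. With the adipocyte covariate the median was 0.10 and 0 of 26 had such a p, where 1.74% of all tested genes were positive at one. Cox5b, a subunit of cytochrome c oxidase, had 146, 169 and 212 CPM in post-run ZT12 muscle, against 137, 151 and 159.6 CPM in sedentary ZT12 muscle, and 155, 174 and 156 CPM in post-run ZT0 muscle, against 218, 176 and 232 CPM in sedentary ZT0 muscle. Its groups overlapped in the ZT12 session and not in the ZT0 session, where the run libraries were the lower ones, and the difference was 0.61 (SE 0.20, edgeR adjusted p = 0.258). Of the 13 mitochondrially encoded genes, 11 fell in the ZT0 session, where 2.53% of all tested genes did, and 0 passed in the ZT12 session. The median difference was 0.41. That median was 0.22 without sedentary ZT0 replicate 1, in which these genes summed to 180511 CPM, against 116014 and 146910 CPM in its replicates. Ppargc1a, the coactivator of mitochondrial genes, had 27.4, 27.8 and 27.0 CPM in post-run ZT12 muscle, against 22.8, 21.5 and 24.5 CPM in sedentary ZT12 muscle, and 25.5, 28.2 and 23.7 CPM in post-run ZT0 muscle, against 28.0, 27.7 and 31.1 CPM in sedentary ZT0 muscle. Neither response passed (0.26 and -0.16), and the difference was 0.42 (SE 0.16, adjusted p = 0.285).

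Sedentary ZT0 replicate 1 also stood apart in slow fibre genes, which encode the contractile proteins of oxidative fibres. The 12 genes summed to 168, 140 and 369 CPM in post-run ZT12 muscle, against 531, 174 and 139 CPM in sedentary ZT12 muscle, and to 273, 311 and 432 CPM in post-run ZT0 muscle, against 2302, 297 and 804 CPM in sedentary ZT0 muscle. The groups overlapped in both sessions. The median difference was 1.44, no member had an unadjusted p under 0.05, and without that library the median was 0.30. With the slow fibre score as a covariate the difference was 0.35 for mt-Co1, 0.41 for mt-Co3 and 0.38 for mt-Nd4. Without the covariate the values were 0.43, 0.49 and 0.46. Cox5b had 0.51 with it and 0.61 without. The part of that library or of slow fibres in the mitochondrial values was not tested beyond these fits. Fast fibre genes had a median difference of 0.06.

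**Figure D4:**
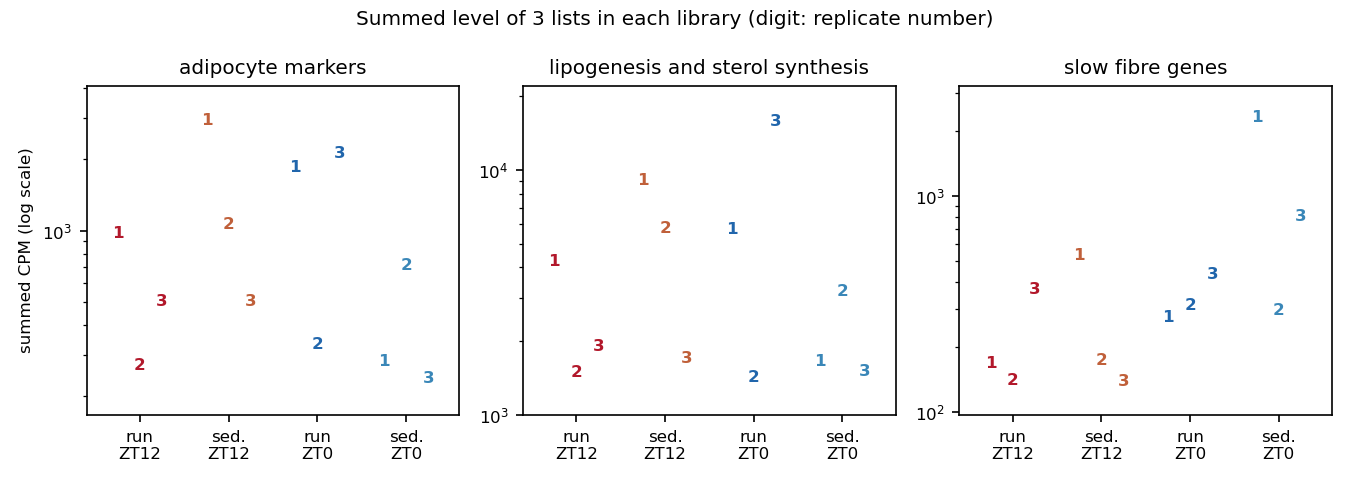
Summed level of adipocyte markers, of lipogenesis and sterol synthesis genes and of slow fibre genes in each of the 12 libraries, in CPM on a log axis, with each digit giving the replicate number of its library. Sedentary ZT12 replicate 1 and post-run ZT0 replicates 1 and 3 are high in the first panel, at 2911, 1840 and 2116 CPM, and sedentary ZT0 replicate 1 is high in the last, at 2302 CPM.

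Among the other gene groups, glucose and glycogen handling had a median difference of 0.09, fatty acid use 0.04, ribosome biogenesis 0.05, protein degradation and autophagy 0.04, hypoxia and angiogenesis 0.02, insulin and growth factor signalling 0.02 and the antioxidant response -0.04. Pdk4, which inhibits pyruvate oxidation, had a difference of 0.04 with a 95% interval of -0.79 to 0.88. Cytokine and inflammation genes had a median of 0.37, which was 0.03 without post-run ZT12 replicate 3 and 0.79 without post-run ZT0 replicate 2. Of the 20 tested, 1 was positive and 2 negative at an unadjusted p under 0.05, where 4.59% and 8.07% of all tested genes were. Mechanical stress and myogenic genes had a median of 0.22, from 0.05 with the adipocyte covariate to 0.38 without post-run ZT0 replicate 2. Of these 22 genes, 1 was positive at such a p. The PGC-1 and nuclear receptor list had a median of 0.18. Nrip1, a corepressor of nuclear receptors, rose by 0.81 in the ZT0 session alone, with a difference of -0.67 (SE 0.26, adjusted p = 0.298). Among markers of other cells, macrophage markers had a median difference of -0.47, neutrophil markers -0.58, lymphocyte markers -0.35, fibroblast markers -0.28, erythroid markers 0.63, Schwann cell markers 0.45, smooth muscle markers 0.20, satellite cell markers 0.15 and tendon markers 0.04. The neutrophil median rests on 4 of 7 markers, which summed to only 0.89 to 2.57 CPM in the 12 libraries. The lymphocyte median rests on 5 of 8 markers, at 0.61 to 1.53 CPM, against 113 to 182 CPM for macrophage markers. The Schwann cell median was 0.13 without sedentary ZT0 replicate 1, and that of neutrophil markers was -0.9997 and of smooth muscle markers 0.08 with the adipocyte covariate. The medians of fatty acid use, insulin signalling, the antioxidant response, protein degradation, ribosome biogenesis and fast fibre genes, and of lymphocyte, fibroblast, satellite cell and tendon markers, took the other sign under at least 1 alternative.

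**Figure D5:**
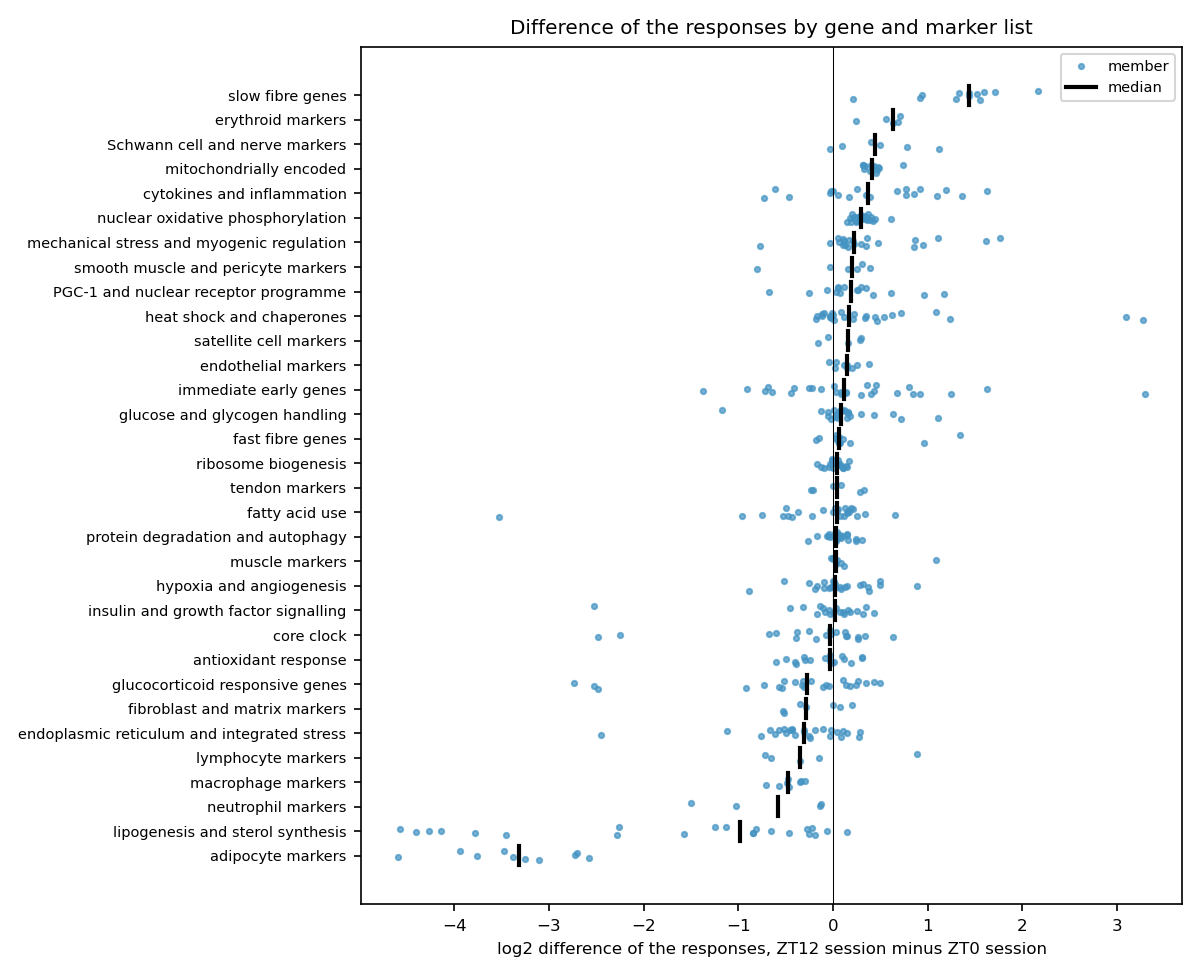
Log2 difference of the responses, ZT12 session minus ZT0 session, for each member of 32 gene and marker lists (points, jittered vertically) with the list median (bar), ordered by median. Adipocyte markers (-3.31) and slow fibre genes (1.44) are at the ends, and the members of the oxidative phosphorylation lists all lie above 0.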

How the data were processed

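The authors deposited estimated counts per gene, with a column for each of 2 lanes per library. The submitters' processing notes name kallisto 0.46.2, DESeq2 1.26.0, bcl2fastq 2.20.0.422 and the build GRCm38.p6. The sources used here do not say how transcripts were summed to genes. kallisto shares reads between similar transcripts by a model, so near-identical genes are uncertain. Lanes were summed and rounded. Symbols and coordinates came from a RefSeq table of GRCm38.p6 (23614 of 23621 identifiers matched). The 7 others held 0.00139% of the counts.

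edgeR 4.0.16 (limma 3.58.1, R 4.3.3; TMM, minimum count 10, robust quasi-likelihood test) was fitted to all 24 quadriceps libraries, with Benjamini-Hochberg adjustment over 15097 genes at 0.05. Adjusted p-values come from it unless DESeq2 (1.42.0) is named. CPM were computed here with TMM-scaled library sizes. SE and 95% intervals follow from the F statistic. The scripts were tested on simulated data.

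Named genes were, among those with an average log2 CPM of at least 1, the 12 smallest p per direction; all DESeq2 calls; up to 4 per list described, and 17 preset genes; among genes changed at least 2-fold in both sessions, the 10 smallest SE; and the 8 smallest p per session among genes called in 1 session only and changed at least 2-fold there. Of these, 1 gene is not reported here. The genes and the lists were chosen with earlier results of these data known. Alternatives were other size factors, no count filter, 12 libraries only, a replicate block, adipocyte or slow fibre scores as covariates, a non-robust fit, DESeq2 and each library left out. Promoter windows are RefSeq's, and 84 of 98 named genes off chromosome 18 and the mitochondrial genome had one.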

Additional observations from a re-analysis of the deposited data

Results flagged for a closer look

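In 8 of the named genes the post-run and sedentary libraries separated without overlap in both sessions, but in opposite directions. Over all tested genes 75 did so (0.497%). All 8 had been named for a small p of the difference or a DESeq2 call, so the separation adds no separate evidence. In Kit the ZT0 groups were close, with the lowest post-run library at 1.29 CPM and the highest sedentary one at 1.25 CPM. In each of the 8 genes the difference itself was tested and did not pass in edgeR (adjusted p = 0.258 for each). The difference of 1.91 in Efnb3 had the smallest unadjusted p of all named genes (3.7e-05) and passed in DESeq2 (adjusted p = 0.0051). The other differences in which the ZT12 response was the higher one were 2.36 in Gm45935, 0.74 in Fam161b and 0.45 in Rc3h1, which encodes an RNA-binding ubiquitin ligase. The difference was -1.98 in Kit, -0.83 in the semaphorin gene Sema6b, -0.38 in Tmem50b and -0.33 in Lzic.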

How the results depend on the processing

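The count of genes called for the difference was 0 with other size factors, with no count filter, in the non-robust fit, with either covariate and with the replicate block. It was 1 (Per1) when only the 12 libraries compared were fitted, 18 in DESeq2, and from 0 to 322 with single libraries left out. The 322 calls, 28 positive and 294 negative, came without post-run ZT0 replicate 2, the post-run ZT0 library lowest in adipocyte markers. Of these, 321 were tested with all libraries, and 320 had an unadjusted p under 0.05 there, where 12.7% of all tested genes did. Both fits share all the other libraries, so this overlap follows from how the genes were chosen and adds no separate evidence. With all libraries and the adipocyte covariate 36 of the 321 had such a p, where 1.74% of all tested genes were positive and 1.61% negative at one. The ZT12 response had 380 to 725 calls with single libraries left out (380 without sedentary ZT12 replicate 1, 413 and 456 without post-run ZT12 replicates 1 and 2). The ZT0 response had 390 to 1317 (390 without sedentary ZT0 replicate 1, 444 without post-run ZT0 replicate 1) and 591 with the adipocyte covariate. The causes were not tested beyond the adipocyte values.

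Shared replicate numbers did not pair the samples (correlations of deviations -0.47 to 0.33). In the replicate block fit 0 genes passed for the difference, 1835 at an unadjusted p under 0.05, and 655 and 928 for the ZT12 and ZT0 responses.

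Some differences near 0 or tied to fat changed sign. With the adipocyte covariate the values were 0.043 for Fabp4, 0.21 for Acly, 0.11 for Thrsp, 0.28 for Wdr92, 0.015 for Ccnl1, -0.24 for Pdk4, -0.14 for Rhob and 0.063 for Efna1. Fabp4 is itself a marker in that score, so its value near 0 follows from the covariate and tests nothing. With the slow fibre covariate they were -0.015 for Neurl1b and -0.053 for Rhob. With single libraries left out, the difference ran from -0.37 to 0.054 for Epha2, -0.33 to 0.13 for Wdr92, -0.039 to 0.27 for Irf2bp2, -1.69 to 0.16 for Egr1, -0.0089 to 0.25 for Neurl1b, -0.29 to 0.024 for Ccnl1, -0.27 to 0.37 for Pdk4, -0.088 to 0.15 for Rhob and -0.28 to 0.17 for Efna1. With 3 libraries a group and a median SE of 0.18, small differences are not resolved.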
